A study of Mus musculus with 6 samples.

Results

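Granzymes are serine proteases that are stored in cytotoxic granules with perforin, the protein that forms pores in a target cell and lets granzymes in. Granzyme B starts apoptosis by cleaving BID and other proteins, granzyme A acts through other substrates, and the mouse carries further granzymes (C to G and N) in a cluster that granzyme B shares with mast cell and basophil proteases and cathepsin G. Killer lymphocytes are their best known source, but granzyme B is also made by basophils, mast cells and other myeloid cells, in part without perforin. The 10 genes followed here are the granzyme genes Gzma, Gzmb, Gzmc, Gzmd, Gzme, Gzmf, Gzmg, Gzmk and Gzmm and the perforin gene Prf1. Of these, 8 have a row of the array that carries their symbol alone, among 30063 named genes in all, while Gzmd and Gzme share 1 row. The family was chosen by the low Gzmb level in leukaemic mice, so the contrast of the groups was part of that choice. The members' values are therefore a description without a test.

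The samples were megakaryocytes, the polyploid marrow cells that release platelets, of female C57 mice, sorted by high side scatter, high CD41 and a DNA content of at least 8N. One group of 3 arrays came from marrow in which the fusion oncogene MLL-AF9 had given rise to acute myeloid leukaemia (AML), and the other group of 3 from healthy control mice. The arrays of a group are called biological replicates but animals are not numbered, so that a p-value reflects only how these samples spread, and their small number limits the precision. How the leukaemia was induced, the age of the mice and any pooling are not given in the sources used here. Values are on a log2 scale after the RMA normalization, ± is the SD over n = 3 arrays, and differences are AML minus control.

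The sorts carried markers of the labelled cell type, but not these alone. All 14 measured megakaryocyte markers were above background on all 6 arrays. Their list median was 8.85 to 9.62 in AML and 8.85 to 9.22 in control. The neutrophil marker list had a median of 7.65 to 7.78 in AML and 9.54 to 9.92 in control, where it was above that of the megakaryocyte markers. Pf4, platelet factor 4, stood at 11.98 ± 0.22 in AML and 12.09 ± 0.12 in control (adjusted p = 0.546, limma), and 0 of the 14 passed an adjusted p of 0.05 in limma, against 2 higher and 0 lower at an unadjusted p under 0.05. With array weights or quantile normalization, or when control array 1 was left out, 1 passed. Background here is the value 5.51, the 95th percentile of the means of 1528 olfactory and vomeronasal receptor genes. The same percentile taken on single arrays was 6.21 on AML array 3 and 5.13 to 5.78 on the others. Over all genes, 1350 (4.49%) were higher and 1880 (6.25%) lower at an adjusted p under 0.05, and the median difference was +0.11. Among the 14983 genes above background on at least 1 array, 5.55% were higher and 11.6% lower. Median centring of the arrays gave 505 higher and 2712 lower. Leaving out AML array 1 gave 647 higher and 1291 lower genes, and leaving out AML array 2 gave 402 and 1071. Leaving out control array 2 gave 185 and 782, and leaving out control array 3 gave 236 and 822.

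Because Gzmb and Gzmc, the 2 members above background, differed in the same direction, and lie on chromosome 14 in one cluster with the basophil protease gene Mcpt8, the 250 bases upstream of their annotated starts are shown, with those of Mcpt8 and of Gzmf, a neighbour not above background. All are on the minus strand of GRCm38.p6, from RefSeq, at chr14:56262335-56262584 for Gzmb, chr14:56234658-56234907 for Gzmc, chr14:56211408-56211657 for Gzmf and chr14:56085198-56085447 for Mcpt8. Each is written 5′ to 3′ and ends at the base before the start. Capitals mark matches, on either strand, to 4 motifs. These are the AP-1 site, spelled TGANTCA, the cyclic AMP response element or CRE, spelled TGACGTCA, the RUNX site, spelled TGTGGT, and the GATA site, spelled AGATAA. No position is shared by matches to different motifs in these windows.
Gzmb: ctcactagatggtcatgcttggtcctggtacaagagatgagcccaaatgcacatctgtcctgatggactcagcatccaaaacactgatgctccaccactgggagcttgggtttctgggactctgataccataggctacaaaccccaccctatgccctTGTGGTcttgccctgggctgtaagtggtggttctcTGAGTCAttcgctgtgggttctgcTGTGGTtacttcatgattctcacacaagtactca
Gzmc: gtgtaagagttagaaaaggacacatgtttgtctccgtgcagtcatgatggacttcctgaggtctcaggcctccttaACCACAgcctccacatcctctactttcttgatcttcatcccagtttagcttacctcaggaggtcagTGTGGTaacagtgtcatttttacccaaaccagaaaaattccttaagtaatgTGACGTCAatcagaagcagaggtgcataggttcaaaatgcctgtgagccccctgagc
Gzmf: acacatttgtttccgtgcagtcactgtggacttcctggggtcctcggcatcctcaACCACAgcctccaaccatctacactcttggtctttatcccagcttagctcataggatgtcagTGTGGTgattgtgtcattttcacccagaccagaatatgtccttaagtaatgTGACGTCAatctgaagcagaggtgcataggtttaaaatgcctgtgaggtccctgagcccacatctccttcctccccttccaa
Mcpt8: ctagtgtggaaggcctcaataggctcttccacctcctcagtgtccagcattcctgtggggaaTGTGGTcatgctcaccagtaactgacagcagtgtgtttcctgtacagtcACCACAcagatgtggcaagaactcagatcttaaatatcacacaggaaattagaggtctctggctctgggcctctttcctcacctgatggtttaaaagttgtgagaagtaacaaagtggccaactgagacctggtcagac

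Gzmb held 1 AP-1 match, 58 to 52 bases upstream of the start, and 2 RUNX matches, 93 to 88 and 34 to 29 bases upstream. Gzmc held a CRE match at nearly the same place, 57 to 50 bases upstream, and RUNX matches at 108 to 103 and, on the other strand, 174 to 169 bases upstream. Gzmf, although not above background, held the same 2 kinds of match as Gzmc, with the CRE letters 82 to 75 bases upstream. Mcpt8 held 2 RUNX matches and neither the AP-1 nor the CRE letters, and AGATAA was found in none of these 4 windows. Windows were available for all 10 members, with 2 for Gzmm. RUNX letters were found in 9 of the 10, CRE letters in 3 (Gzmc, Gzmf and Gzmg) and AP-1 letters in 1 (Gzmb), against 14.0%, 1.55% and 6.75% of 32851 upstream windows of this length over the genome. AGATAA was found in 1 (Gzmm), against 9.99%. In a global alignment the Gzmb window was 47.8% identical to that of Gzmc and 47.4% to that of Mcpt8, whereas that of Gzmc was 70.2% identical to Gzmf, 73.7% to Gzmg and 80.9% to Gzme. Those of Gzmd and Gzme were 94.8% identical. The windows of Gzmc, Gzmd, Gzme, Gzmf and Gzmg are alike, so their RUNX and CRE matches are not independent. The counts over members therefore cannot be read as an excess over the genome share. A match is a stretch of letters and was not tested as a binding site.

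Gzmb was the member with the highest contrast between the groups. It stood at 10.35, 10.41 and 10.65 on the control arrays and at 7.17, 7.15 and 7.06 on the AML arrays. The groups lie far apart, the AML arrays differ little from each other, and all 6 values are above background. The means were 10.47 ± 0.16 in control and 7.13 ± 0.06 in AML, a 10.1-fold lower level, and the difference of -3.34 was the 3rd lowest among all genes. It ran from -3.41 without control array 1 to -3.25 without control array 3, and from -3.46 to -3.25 over the other normalizations and the mean of a gene's rows.

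Gzmc, a granzyme of activated killer cells encoded in the same cluster as Gzmb, stood at 7.16, 7.59 and 7.87 on the control arrays and at 5.19, 5.28 and 5.44 on the AML arrays. The groups did not overlap. All control values were above background and all AML values below it, so only a bound can be given. The mean was 7.54 ± 0.36 in control and not above background in AML (5.30 ± 0.13 as measured), at least 4.07-fold lower. Here and below, a fold given as "at least" sets AML at the shared background of 5.51. It would be smaller at the percentiles of the single AML arrays, 5.59, 5.78 and 6.21. Control array 3 held the highest and control array 1 the lowest control value of both Gzmb and Gzmc.

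The other 6 members with a row of their own were not above background on any array. Their values lay between 3.83 and 4.99, and their differences between -0.06 and +0.17, beside the median of +0.11 over all genes. Prf1, which encodes perforin, stood at 4.55, 4.75 and 4.83 in AML and at 4.56, 4.60 and 4.48 in control, so that the groups overlapped. Gzma, the gene of the tryptase granzyme A, stood at 4.03 ± 0.16 in AML and 4.09 ± 0.06 in control, with overlapping groups. Gzmk, also a tryptase, stood at 4.16 ± 0.08 in AML and 4.02 ± 0.04 in control, and its AML values lay above all control values.

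Gzmm, the granzyme of innate lymphocytes that cuts after methionine, stood at 4.95 ± 0.03 in AML and 4.90 ± 0.07 in control. Gzmf and Gzmg, further granzymes of the chromosome 14 cluster, stood at 4.01 ± 0.17 and 4.80 ± 0.05 in AML and at 3.89 ± 0.10 and 4.72 ± 0.05 in control, and the groups of all 3 genes overlapped. The row shared by Gzmd and Gzme stood at 5.24, 5.30 and 5.36 in AML and at 5.21, 5.23 and 5.17 in control. It was not above background on any array, and it names neither gene. The small differences of Gzmf, Gzmg, Gzmk and Gzmm turned from above to below 0 under renewed quantile normalization and cyclic loess, and those of Gzmg and Gzmm also under median centring, so no direction is given for them. Of the 8 members with a row, 2 (Gzmb and Gzmc) had all AML values below all control values, as had 13.1% of all genes, and 1 (Gzmk) had all of them above, as had 28.2% of all genes. These shares are given for scale only, since the contrast was part of the choice of the members.

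**Figure D1:**
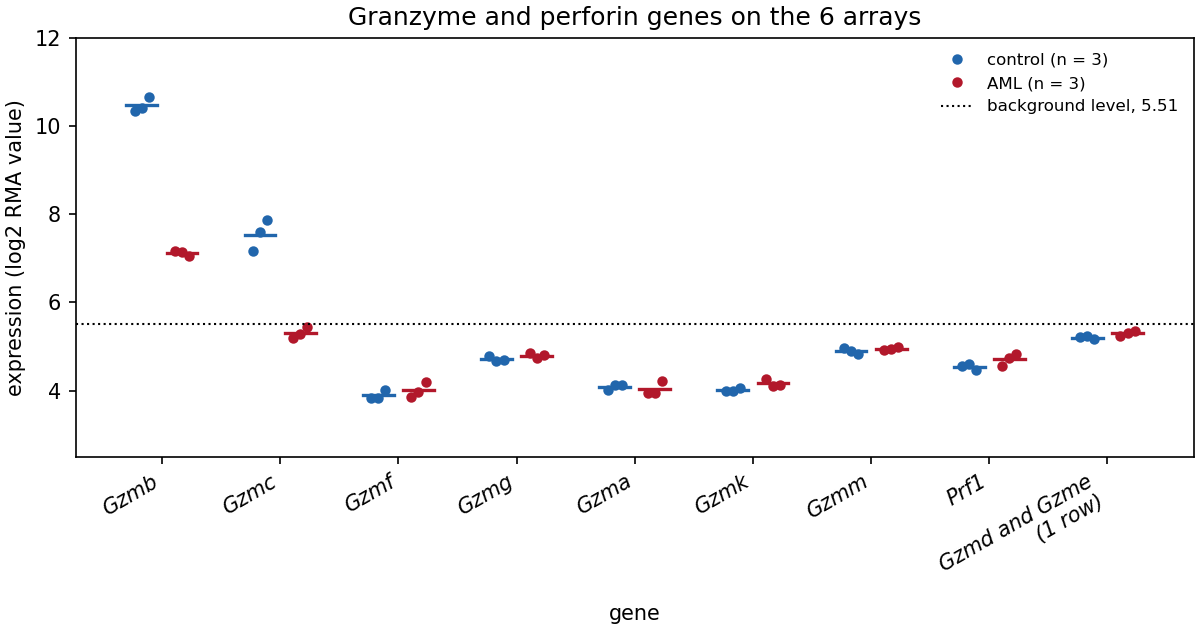
Log2 expression of the 8 granzyme and perforin genes and of the row shared by Gzmd and Gzme (vertical axis), with each array as a point and the group mean (n = 3) as a bar, control in blue and AML in red. For Gzmb and for Gzmc the 3 control values lie above the 3 AML values, and besides these control values only the AML values of Gzmb lie over the dotted background level of 5.51.

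Along chromosome 14 most neighbours of Gzmb did not share its difference. From Cma1, a mast cell chymase gene, to Gzmb, 17 named genes were measured, and 11 of them were not above background on any array. Gzmb and Gzmc are among the 6 above it and carry no test. Of the other 4, limma called 1 lower, Mcpt8, and 1 higher, Ctsg. Of all genes above background, 11.6% were lower and 5.55% higher. Mcpt8, the gene of a protease of basophils, stood at 8.39, 8.65 and 8.54 in AML and at 10.34, 10.44 and 10.65 in control. It fell by 1.95 (SE 0.11, adjusted p = 3.68e-04, limma), and its groups did not overlap. Ctsg, the gene of cathepsin G of neutrophil precursors and next to Mcpt8 in the cluster, went the other way. It stood at 9.11, 9.14 and 8.73 in AML and at 7.69, 8.09 and 8.37 in control, and rose 1.93-fold (adjusted p = 0.0251, limma). The call of Ctsg was lost when AML array 1 or 2 or control array 2 was left out (adjusted p 0.0682 to 0.0915). The mast cell protease genes Cma1, Cma2, Mcpt1, Mcpt2, Mcpt4 and Mcpt9 and the granzyme gene Gzmn were not above background (Gzmn and Mcpt4 were chosen with their values known). Of the 16 genes that flank the cluster, 8 on each side, 1 was lower past the threshold (Parp4, by 0.54) and 1 higher (Sdr39u1, by 0.36), both chosen with their values known. Over all genes the shares were 6.25% lower and 4.49% higher. Parp4 lost its call in 6 alternatives (adjusted p 0.0562 to 0.153) and Sdr39u1 in 9 (0.0503 to 0.171).

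**Figure D2:**
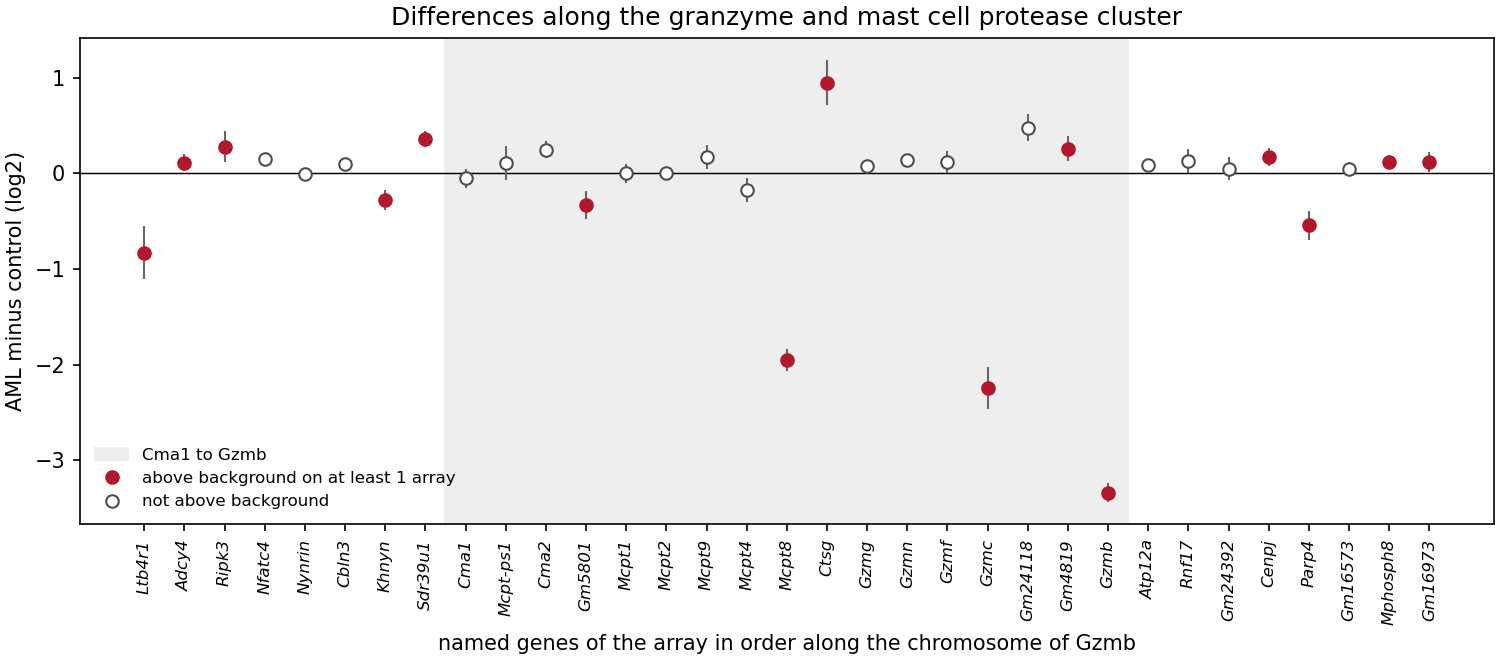
AML minus control (log2, vertical axis) for the named genes of the array in their order along chromosome 14 from 8 genes before Cma1 to 8 after Gzmb, with the cluster shaded, filled points for genes above background on at least 1 array and bars of 1 SE from the group SDs (n = 3). Mcpt8, Gzmc and Gzmb stand apart below 0 at -1.95, -2.24 and -3.34, and Ctsg above it at +0.95.

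Among 15 measured serine protease genes related to the granzymes, the basophil genes Mcpt8 and Prss34 fell (13.3%, against 6.25% of all genes) and Ctsg rose (6.67%, against 4.49%). Prss34, which encodes a tryptase of basophils, fell 5.25-fold from 10.91 ± 0.27 to 8.52 ± 0.27 (adjusted p = 7.54e-04, limma). Elane, neutrophil elastase, stood at 10.96 ± 0.11 in AML and 10.62 ± 0.17 in control (adjusted p = 0.0889), and Prtn3, proteinase 3, at 8.78 ± 0.20 and 8.39 ± 0.22 (adjusted p = 0.12). Prtn3 passed upward with array weights (adjusted p = 0.0366), quantile normalization (0.0315) and cyclic loess (0.0483), and Elane with array weights (0.0333). The mast cell tryptase gene Tpsb2 stood at 5.69 ± 0.25 and 5.54 ± 0.28 (adjusted p = 0.542). Elane, Prtn3 and Tpsb2 were chosen with their values known. The list median was +0.12, near the +0.11 of all genes.

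Genes that build, load and release the granule were in part lower. Of 16 measured, all above background on at least 1 array, 7 fell, or 43.8%, against 6.25% of all genes and 11.6% of genes above background, and at an unadjusted p under 0.05 there were 11 lower and 0 higher. The list median was -0.39. Ctsc, the gene of cathepsin C, the dipeptidyl peptidase that trims granzymes and other granule proteases into their active form, stood at 7.50, 6.90 and 7.23 in AML and at 8.59, 8.65 and 8.76 in control. The groups did not overlap, and Ctsc fell 2.74-fold (adjusted p = 0.00232, limma). Lyst, the regulator of lysosome-related granules that is defective in Chediak-Higashi syndrome, fell 2.02-fold (adjusted p = 0.0104), and the lysosomal cathepsin genes Ctsl and Ctsh fell by 0.70 and 0.86.

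Lamp1, a lysosomal membrane protein, fell by 0.48 and Stx11, a syntaxin of granule release, by 0.38. Srgn, the gene of serglycin, the proteoglycan that holds granzymes in the granule, fell by 0.29, from 10.05 ± 0.04 to 9.76 ± 0.04 (adjusted p = 0.0425), and was chosen with its values known. The release factors Rab27a (6.03 ± 0.15 and 6.46 ± 0.21, adjusted p = 0.0735), Unc13d (6.67 ± 0.06 and 6.58 ± 0.04, adjusted p = 0.375) and Stxbp2 (7.92 ± 0.05 and 8.04 ± 0.10, adjusted p = 0.301) did not pass. Rab27a passed downward with array weights (0.0284), without control array 1 (0.0343) and without genes below the median (0.0494). Nkg7, a granule membrane protein, stood at 8.94 ± 0.27 and 8.83 ± 0.18 (adjusted p = 0.647, chosen with its values known). The list held 3 calls when AML array 2 was left out and 1 when control array 2 or control array 3 was. Lyst and Ctsl lost their calls without control array 2 or 3 (adjusted p 0.0509 to 0.063). Ctsh and Lamp1 lost theirs without those arrays and without AML array 2 (0.0625 to 0.108). Stx11 lost it without every single array but AML array 3 (0.0731 to 0.114) and under quantile normalization (0.157) and cyclic loess (0.116). Srgn lost it without any single array (0.0578 to 0.139), under quantile normalization (0.155), cyclic loess (0.0655) and with a mean-variance trend (0.0567). Cathepsins and lysosomal proteins are also made by macrophages and neutrophils, whose markers were lower in the same AML sorts (list medians -1.08 and -1.32). Their part in these differences was not tested.

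The serpins that block granzymes in the cells that carry them were mostly not above background. Of 14 measured, 11 were not above it, and 1 fell, or 7.14%, near the 6.25% of all genes. It was Serpinb6a, an inhibitor of trypsin-like proteases and cathepsin G, from 6.54 ± 0.05 to 5.99 ± 0.09 (adjusted p = 0.00684, limma). Serpinb9, the mouse inhibitor of granzyme B, stood at 5.38 ± 0.22 in AML and 5.65 ± 0.07 in control (adjusted p = 0.165), with 1 AML array and all control arrays above background. It passed downward with array weights (adjusted p = 0.0262) and without AML array 3 (0.0283). That array was the AML array above background, at 5.63, which is under its own percentile of 6.21. Serpinb1a, an inhibitor of neutrophil proteases, stood at 8.38 ± 0.33 and 7.78 ± 0.14 (adjusted p = 0.0638). It passed upward in 6 alternatives, among them without AML array 3 (0.0087), and was chosen with its values known. The list then held 3 calls without AML array 3.

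Of 17 measured genes of granzyme substrates and entry, 2 fell and 1 rose. The shares were 11.8% and 5.88% of the list, against 6.25% and 4.49% of all genes and 11.6% and 5.55% of genes above background. Of the list, 2 genes were not above background on any array. At an unadjusted p under 0.05 there were 6 higher and 3 lower, and the list median was -0.10. Lmnb1, the nuclear lamin B1 cut in apoptosis, fell by 0.88, from 7.71 ± 0.20 to 6.83 ± 0.08 (adjusted p = 0.00552, limma), and Mcl1, a survival protein of the BCL2 family, fell by 0.45 (adjusted p = 0.0106). Apex1, a DNA repair enzyme of the SET complex that granzyme A cuts, rose from 6.53 ± 0.14 to 7.04 ± 0.07 (adjusted p = 0.0177). Bid, the main pro-apoptotic substrate of granzyme B, stood at 6.55 ± 0.08 in AML and 6.30 ± 0.05 in control (adjusted p = 0.0788), Dffa, the inhibitor of the apoptotic nuclease, at 6.99 ± 0.04 and 6.75 ± 0.06 (adjusted p = 0.0721) and Casp8 at 7.37 ± 0.14 and 7.48 ± 0.05 (adjusted p = 0.429). Bid and Dffa passed upward with array weights, quantile normalization and cyclic loess (adjusted p 0.0159 to 0.0471), and Bid also without AML array 3 (0.0497). Mcl1 lost its call without control array 2 (0.0586) or 3 (0.0523) and under quantile normalization (0.0548), and Apex1 without AML array 2 (0.0538) or control array 2 (0.0706). The list held 6 calls without AML array 3 (3 higher and 3 lower) and 1 without control array 2. It held 5 higher and 2 lower with array weights and with cyclic loess, and 5 higher and 1 lower with quantile normalization. Median centring gave 1 higher and 2 lower.

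Genes tied to granzyme expression in lymphocytes, by transcription or through cytokines, were in part lower. Of 18 transcription factors and cytokine inputs, 8 fell (44.4%, against 6.25% of all genes and 11.6% of genes above background), and at an unadjusted p under 0.05 there were 10 lower and 1 higher. The list median was -0.33. Id2, an inhibitor of E proteins needed for innate lymphocytes, stood at 7.65, 7.53 and 7.51 in AML and at 8.94, 8.85 and 8.99 in control. It fell 2.58-fold (adjusted p = 3.81e-04, limma), with no overlap. Il15, the cytokine that sustains NK and memory CD8 T cells, stood at 6.33, 5.93 and 6.02 in AML and at 7.26, 7.43 and 7.64 in control. It fell 2.54-fold (adjusted p = 0.00235), again with no overlap. Il12rb2, a chain of the interleukin 12 receptor, fell at least 2.13-fold from 6.61 ± 0.16 to a level not above background (adjusted p = 0.0013).

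Prdm1, the repressor BLIMP1 of effector lymphocytes and plasma cells, fell at least 1.54-fold from 6.14 ± 0.11 (adjusted p = 0.00929), and Il18r1, a chain of the interleukin 18 receptor, at least 1.34-fold from 5.94 ± 0.23 (adjusted p = 0.0106), both to levels not above background. Stat4, which relays interleukin 12, fell by 0.70 (adjusted p = 0.0281). Nfil3 fell by 0.48 and Bhlhe40 by 0.74, and both were picked once their values were known. Tbx21 and Eomes, the T-box factors of killer lymphocytes, were not above background on any array (5.39 ± 0.11 and 5.24 ± 0.03, and 4.55 ± 0.05 and 4.45 ± 0.11, AML first in each pair). Runx3, a factor of cytotoxic T cells that myeloid cells also express, stood at 7.12 ± 0.18 and 7.18 ± 0.13 (adjusted p = 0.713). The list held 5 calls when AML array 1 was left out and 5 for AML array 2, and 3 for control array 2 and 5 for control array 3. Prdm1 and Il18r1 lost theirs without control array 2 (adjusted p 0.0503 and 0.0514). Stat4, Nfil3 and Bhlhe40 lost theirs when either of the first 2 AML arrays or either of control arrays 2 and 3 was left out (0.0717 to 0.145), and Bhlhe40 also under quantile normalization (0.0614) and cyclic loess (0.0603). Monocyte and macrophage markers and neutrophil markers were lower in the same AML sorts (list medians -1.08 and -1.32). The part of these cells in the differences of this list was not tested.

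Other cytotoxic effectors were mostly not above background. Of 9 measured, 5 were not above it on any array, among them Fasl, the death ligand of killer cells, at 3.23 ± 0.25 in AML and 3.13 ± 0.09 in control, Tnfsf10, which encodes TRAIL, at 4.92 ± 0.14 and 4.83 ± 0.18, and Ifng, interferon gamma (chosen with its values known). In all, 3 fell, or 33.3%, against 6.25% of all genes and 11.6% of genes above background. At an unadjusted p under 0.05 there were 3 lower and 1 higher, and the list median was +0.09. Ltb, lymphotoxin beta, fell by 0.92, from 7.13 ± 0.24 to 6.22 ± 0.08 (adjusted p = 0.0075, limma), and Tnf, tumour necrosis factor, fell by 0.91, from 8.43 ± 0.04 to 7.52 ± 0.39 (adjusted p = 0.0255). Tnfrsf10b, a TRAIL receptor gene, fell by 0.30 with no array above background (adjusted p = 0.0416). Fas went the other way, at 8.42 ± 0.38 in AML and 7.30 ± 0.60 in control, with no overlap (adjusted p = 0.0645). It passed upward with array weights (0.0385) and without genes below the lower tertile (0.0483) or the median (0.0406). Its difference changed sign in 1 of 15 alternatives, and it was chosen with its values known. The call of Tnf was lost when AML array 1 or any of the control arrays was left out (adjusted p 0.0571 to 0.101) and that of Tnfrsf10b without any single array but control array 1 (0.0507 to 0.165). The list held 1 call when AML array 1, control array 2 or control array 3 was left out.

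**Figure D3:**
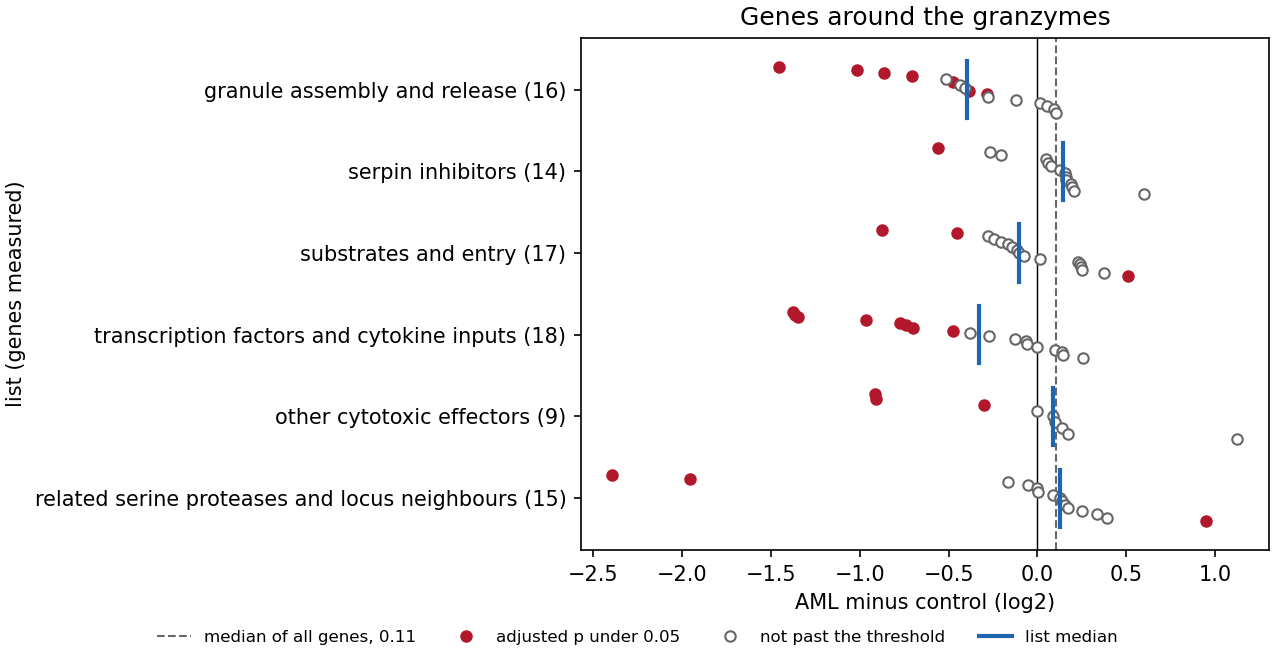
AML minus control (log2, horizontal axis) for each measured gene of the 6 lists around the granzymes, filled where the adjusted p was under 0.05, with the list median as a blue bar and the median of all genes, 0.11, as a dashed line. Filled points lie mainly below 0 in the lists of granule assembly (7 of 16) and of transcription factors and cytokine inputs (8 of 18).

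Markers of killer lymphocytes were largely not above background in either group. Of 13 measured T cell markers, 9 were not above background on any array. Cd3e stood at 4.89 ± 0.03 in AML and 4.71 ± 0.05 in control, and Cd8a at 4.66 ± 0.08 and 4.60 ± 0.02, both chosen with their values known. Cd3d, a further chain of the CD3 complex, stood at 4.89 ± 0.13 and 5.27 ± 0.12 (adjusted p = 0.0552), and Cd2, an adhesion receptor, at 4.53 ± 0.23 and 5.08 ± 0.22 (adjusted p = 0.0631). Their groups did not overlap, no array was above background, and each passed downward in 5 alternatives, among them all 3 other normalizations (0.0222 to 0.0365). Both were chosen with their values known. At an unadjusted p under 0.05 the list held 3 higher and 3 lower genes. The median over the list was 5.05 to 5.18 in AML and 5.11 to 5.20 in control. Lat, the brightest of the list at 9.61 ± 0.36 and 9.55 ± 0.18, is also an adaptor of platelet collagen signalling, and Cd5 stood at 5.78 ± 0.09 and 5.74 ± 0.07. In the fit as deposited 1 gene of the list passed, upward (7.69%, against 4.49% of all genes). It was Bcl11b, which rose from 4.83 ± 0.05 to 5.13 ± 0.07 without reaching background (adjusted p = 0.0441, limma). Bcl11b lost its call without any single array but AML array 3 (0.0696 to 0.15) and under all 3 other normalizations (0.143 to 0.201).

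Of 15 measured NK cell markers, 13 were not above background on any array, and the list median was 4.50 to 4.60 in AML and 4.60 to 4.80 in control. Ccl5, a chemokine gene of the list above background on all arrays, stood at 6.68 ± 0.09 in AML and 6.97 ± 0.23 in control (adjusted p = 0.164, limma). Of the list, 5 fell and 1 rose, or 33.3% and 6.67%, against 6.25% and 4.49% of all genes. The lectin-like receptor gene Klrk1 stood at 3.52, 3.59 and 3.61 in AML and at 4.88, 4.82 and 5.07 in control, a difference of -1.35 with no overlap (adjusted p = 4.78e-04, limma), although all 6 values were under the background level. Klrc1 and Klrd1, partners in a further receptor, fell by 1.02 and 0.97 in the same range, and Klri2 by 0.50. Cd244a, a SLAM family receptor that basophils, mast cells and monocytes also carry, was the only one of these 6 above background, on all arrays. It fell 2.57-fold, from 8.30 ± 0.17 to 6.93 ± 0.33 (adjusted p = 0.00541). Ncr1, the defining activating receptor of NK cells, stood at 4.71 ± 0.06 and 4.37 ± 0.08. It passed upward (adjusted p = 0.0366), but not under median centring (0.102), quantile normalization (0.124), cyclic loess (0.101) or without any single array but control array 1 (0.053 to 0.148). Klri2 lost its call without control array 2 (0.0619) or 3 (0.0601). Klrd1, Klri2 and Ncr1 were chosen with their values known. Prf1 and Gzma, members that these cells express, were not above background on any array. The part of T and NK cells in the Gzmb and Gzmc levels was not tested.

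Of 16 measured basophil and mast cell markers, 6 fell and 10 did not pass. The fallen share was 37.5%, against 6.25% of all genes and 11.6% of genes above background, and at an unadjusted p under 0.05 there were 8 lower and 1 higher. The median difference of the list was -0.59, and its median level per array was 5.52 to 5.92 in AML and 6.96 to 7.18 in control. Mcpt8 and Prss34 are given above. Cd200r3, a receptor of basophils and mast cells, stood at 7.15, 7.21 and 7.28 in control and at 4.99, 5.04 and 5.01 in AML, where no array was above background. It fell at least 3.25-fold (adjusted p = 4.62e-05, limma). Fcer1a, of the IgE receptor that basophils and mast cells share, fell at least 2.88-fold from 7.04 ± 0.25 (adjusted p = 7.18e-04), and Ms4a2, its beta chain, fell by 1.14 with no array above background. Fcer1a and Ms4a2 were chosen with their values known.

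The interleukin 6 gene Il6 fell 10.8-fold, from 9.15 ± 0.25 to 5.71 ± 0.32 with 2 AML arrays above background (adjusted p = 3.51e-04). It is in the list as a product of activated basophils and mast cells and is made by macrophages as well. Other genes of the list did not pass, and these were chosen with their values known. Cpa3, the carboxypeptidase of mast cells and basophils, stood at 9.04 ± 0.30 in AML and 9.27 ± 0.34 in control (adjusted p = 0.447). Hdc, the histamine-forming enzyme, stood at 8.72 ± 0.70 and 9.68 ± 0.25 with no overlap (adjusted p = 0.103), and passed downward with array weights (0.0331). Il4 stood at 6.79 ± 0.57 and 7.74 ± 0.19, also with no overlap (adjusted p = 0.067). It passed downward with array weights (0.0198), without AML array 3 (0.0297) and without genes below the median (0.0425). Kit, the stem cell factor receptor, stood at 7.24 ± 0.23 and 7.03 ± 0.26 (adjusted p = 0.377). Gata2, a transcription factor of mast cells, basophils and progenitors, stood at 7.46 ± 0.24 and 7.12 ± 0.10 (adjusted p = 0.121) and passed upward with array weights (0.0136) and without AML array 3 (0.0299). On the same list, the mast cell protease genes Cma1, Mcpt4 and Tpsab1 were not above background. In bulk sorts, fewer cells of a type and less RNA per cell cannot be told apart. The part of basophils in the lower Gzmb and Gzmc levels was not tested.

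Markers of other cells moved with the same contrast. Lower were 91.7% of neutrophil, 84.6% of monocyte and macrophage, 41.7% of plasmacytoid dendritic cell and 54.5% of B and plasma cell markers. Over all genes 6.25% were lower, and 11.6% of genes above background. Of 12 neutrophil markers 11 fell (list median 7.65 to 7.78 in AML and 9.54 to 9.92 in control), led by Ltf, lactoferrin, which fell 4.91-fold (adjusted p = 2.99e-04, limma), and Camp, cathelicidin, which fell 5.42-fold (adjusted p = 3.81e-04). Of 13 monocyte and macrophage markers 11 fell (list median 6.68 to 7.28 in AML and 7.84 to 7.89 in control), such as the mannose receptor gene Mrc1, 3.87-fold lower (adjusted p = 0.00149). The monocyte and macrophage count was 6 when control array 2 or control array 3 was left out. Of 12 plasmacytoid dendritic cell markers 5 fell (list median 5.78 to 5.82 in AML and 6.26 to 6.39 in control), among them Pld4 by 0.92 (adjusted p = 0.00296). Siglech, their most selective marker (chosen with its values known), stood at 5.45 ± 0.15 with 1 AML array above background, from 6.10 ± 0.08 (adjusted p = 0.0096, and 0.0533 without control array 2). The array above background was AML array 3, at 5.58, which is under its own percentile of 6.21. That list held 3 calls without control array 2. Of 11 B and plasma cell markers 6 fell (list median 5.42 to 5.62 in AML and 5.74 to 5.98 in control), with 3 without AML array 2 and 3 without control array 2. The part of these cells in the Gzmb and Gzmc values was not tested.

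**Figure D4:**
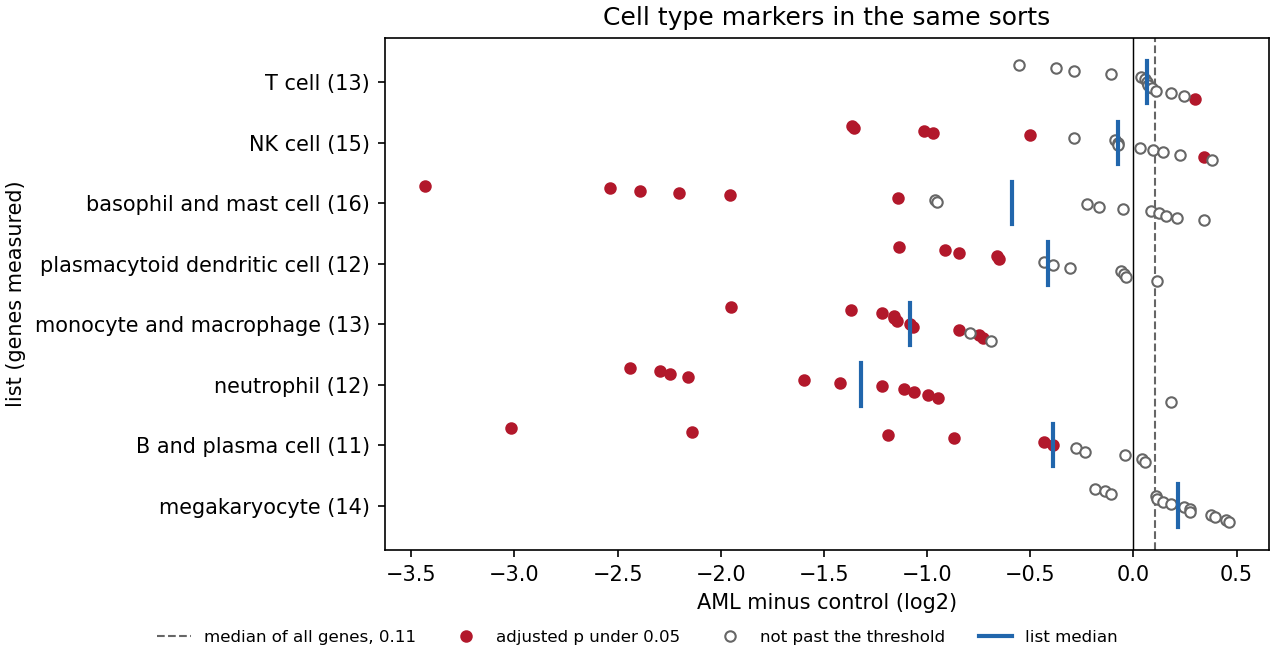
AML minus control (log2, horizontal axis) for each measured marker of 8 cell types, filled where the adjusted p was under 0.05, with the list median as a blue bar and the median of all genes, 0.11, as a dashed line. Neutrophil (11 of 12) and monocyte and macrophage markers (11 of 13) lie mostly below 0, basophil and mast cell markers spread widely (6 of 16 filled), and T cell and megakaryocyte markers lie near the dashed line.

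The genes nearest to Gzmb in pattern were searched among the 15031 genes whose mean was not under the median of all, by the Euclidean distance between profiles over the 6 arrays after each gene's own mean was taken off. The 8 nearest were Il6 (distance 0.44), the C-type lectin gene Cd209a (0.61), the ficolin B gene Fcnb (0.77), the interleukin 1 beta gene Il1b (0.79), the MHC class II chain gene H2-Eb1 (0.85), the predicted gene Gm6377 (0.86), the eosinophil and basophil chemokine receptor gene Ccr3 (0.92) and the immunoglobulin mu chain gene Ighm (0.93). Their Pearson correlations with Gzmb ran from 0.975 to 0.996 over 6 arrays. The contrast of the groups sets these values for any gene with a fall of this size, so they describe size more than shape. Il1b, at 7.66, 7.50 and 6.60 in AML, and Ighm, at 8.01, 7.20 and 6.96, spread more between AML arrays than Gzmb. Fcnb, at 8.29, 8.70 and 8.79 in control, spread more between control arrays.

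**Figure D5:**
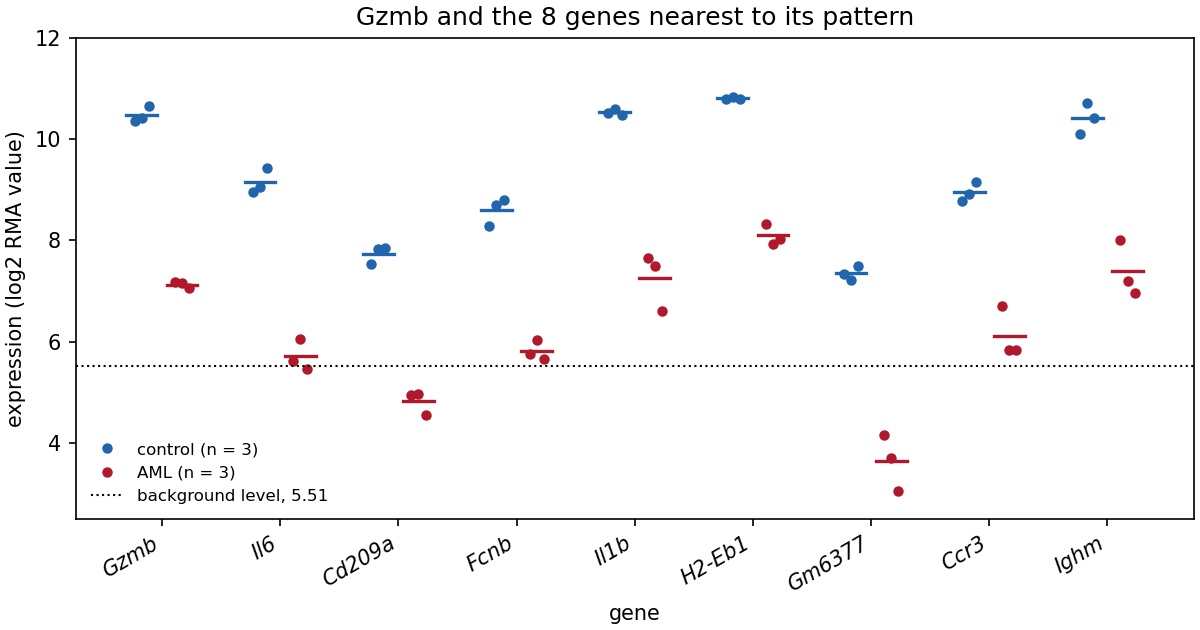
Log2 expression of Gzmb and of the 8 genes nearest to its pattern (vertical axis), with each array as a point and the group mean (n = 3) as a bar, control in blue and AML in red. In all 9 genes the 3 AML values lie below the 3 control values, and the AML points of Gzmb are the most closely spaced.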

How the data were processed

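Expression was measured on 6 whole-transcript arrays made from 250 ng of total RNA, per the labels' protocols. The authors deposited log2 values computed with RMA, per the submitters' processing notes. The version and genome build are not given in the sources used here. Rows with 1 gene symbol (30604 of 72688) were named through the platform table and a RefSeq gene table of GRCm38.p6, 30602 of them matched, and the row with the highest mean was kept for each of 30063 genes. AML and control were compared with limma 3.58.1 (lmFit and eBayes, R 4.3.3), two-sided and unfiltered, and p-values were adjusted by Benjamini-Hochberg across the 30063 genes, with a threshold of 0.05. All adjusted p-values are from this fit or the named alternative. RMA equalises distributions, and a change common to most genes is lost in it.

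In data simulated for AML against control over 30063 genes with independent noise, 12 of 50 genes made to differ 1.5-fold were called, as were 40 of 50 at 2-fold and 49 of 50 at 4-fold. There 29863 genes were left unchanged, whereas 10.7% of genes were called in the arrays. The adjusted p depends on the share of genes that differ, so these rates need not hold for the arrays. Members, gene lists and tests were chosen with earlier results of these data known. Picked by rule were all members, of each pathway list up to 6 genes past the threshold and 3 others, of each marker list up to 3 past it and the 2 brightest, and the 8 genes nearest to Gzmb. Not every list gene so picked is printed. Promoter windows were aligned globally with Biopython 1.88 (match 1, mismatch -1, gap -3 to open and -1 to extend). Same-numbered arrays of the groups did not deviate together (correlations -0.396, 0.153 and -0.294), so the numbers were not used as pairs.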

Additional observations from a re-analysis of the deposited data

How the results depend on the processing

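The alternatives were run on 71 genes outside the family that were past the threshold, 13 to 15 of them for each gene. Of the 71, 46 stayed past it in every alternative run on them and 25 lost the call in at least 1, most often without control array 2 (25) or control array 3 (20). None of the 71 changed sign in those run on it. Gzmb and Gzmc stood lower in every alternative run on them. Over the fits that leave out 1 array each, the higher genes numbered 185 to 1639 and the lower genes 782 to 1967. Calls then numbered 1 to 7 for granule assembly and release, 1 to 3 for serpins, 1 to 6 for substrates, 3 to 9 for transcription factors and cytokine inputs, 1 to 2 for other effectors and 2 to 3 for related proteases. For the cell types they numbered 0 to 1 (T), 4 to 6 (NK), 6 to 8 (basophil and mast), 3 to 5 (plasmacytoid dendritic), 6 to 12 (monocyte and macrophage), 9 to 11 (neutrophil), 3 to 5 (B and plasma) and 0 to 1 (megakaryocyte). The differences of single members ran from -0.15 to -0.01 for Gzma, 0.03 to 0.19 for Gzmf, 0.05 to 0.11 for Gzmg, 0.10 to 0.17 for Gzmk, 0.01 to 0.08 for Gzmm and 0.11 to 0.25 for Prf1.

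Array weights gave 4839 higher and 3014 lower genes, with 4 serpins, 7 substrates, 5 related proteases, 2 T cell markers and 1 megakaryocyte marker past the threshold. A 2-fold minimum left 115 higher and 447 lower genes, with 2 granule genes, 0 serpins, 0 substrates, 3 transcription and cytokine genes, 0 other effectors, 0 T cell, 3 NK cell, 1 plasmacytoid dendritic cell and 3 B and plasma cell markers. Without the minimum, limma's calls for the 4 lists at 0 numbered 1, 3, 3 and 1 at the same adjusted threshold, and 4, 9, 4 and 6 at an unadjusted p under 0.05. Renewed quantile normalization gave 3 serpins, 6 substrates, 5 related proteases, 2 T cell markers and 1 megakaryocyte marker, cyclic loess 3 serpins, 7 substrates and 2 T cell markers, and the mean-variance trend 2 T cell markers. Median centring gave 505 higher genes, 2 serpins and 2 T cell markers. Under these 3 normalizations both T cell markers were lower, and Bcl11b was not among them. The differences of Gzma, Gzmf, Gzmg, Gzmk, Gzmm and Prf1 were -0.23, -0.06, -0.08, -0.04, -0.09 and 0.01 with quantile normalization and -0.22, -0.04, -0.07, -0.02, -0.09 and 0.02 with cyclic loess. With median centring those of Gzmg, Gzmk, Gzmm and Prf1 were -0.04, 0.02, -0.07 and 0.05. Without genes below the lower tertile, 2 serpins, 3 T cell, 2 NK cell and 1 megakaryocyte marker passed, and without genes below the median 2, 0, 1 and 1, where fewer genes were tested.

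The replicate number as a block gave 206 higher and 861 lower genes, with 3 granule genes, 1 substrate, 0 T cell, 3 plasmacytoid dendritic cell, 7 monocyte and macrophage and 3 B and plasma cell markers. The numbers do not pair the arrays, and these counts come from a fit with fewer residual degrees of freedom. For other changes between settings the cause was not tested. No difference is read for members under the background level on every array, although other genes there, such as Klrk1, passed the threshold.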

Other observations

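The 8 genes nearest in pattern to Gzmc, by the same distance, shared 0 genes with the 8 nearest to Gzmb. This search was added after the values were seen. They were Cytip, an adaptor of leukocyte adhesion (distance 0.32), the basophil protease gene Prss34 (0.33), the chemokine gene Ccl9 (0.34), the growth-restraining gene Btg1 (0.38), the decoy receptor gene Il1r2 (0.40), Ms4a4a (0.42), the aspartic protease gene Asprv1 (0.42) and Ahr, the aryl hydrocarbon receptor (0.43). The distance mainly follows the size of the difference, which was -3.34 for Gzmb and -2.24 for Gzmc, with all AML values of Gzmc below background. The lack of shared genes is therefore not read as a difference in pattern.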
